A study of Rattus norvegicus with 15 samples.

Results

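The genes described here are 32 genes of myelin and of the oligodendrocyte lineage. They were taken by name from a fixed list of symbols, which was chosen with earlier results of these data known. Of the 32, 31 had at least 1 probe set assigned to them alone, out of 14217 genes with such a probe set on the array. They held 47 of 31099 probe sets, and Gpr17 had none. The brightest probe set, by mean over the 15 arrays, stands for each gene, and 10 of the 31 have further probe sets, which are treated separately below. Probe sets entered the test if their mean log2 signal was above the 30th percentile of all probe sets, 5.11, which left 30 of the 31 genes. Olig2 lay just under that limit and is given by its signals only.

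Oligodendrocytes wrap axons of the central nervous system in myelin, a stack of fused membrane that is rich in galactolipids and held together by a small set of abundant proteins. They arise from dividing precursors, which carry the platelet-derived growth factor receptor alpha and the NG2 proteoglycan and lose them as the cells mature under the control of Olig, Sox10 and Myrf transcription factors. The subfornical organ, a small sensory organ at the roof of the brain ventricles with vessels that lack a blood-brain barrier, is known mainly for neurons that sense angiotensin II and body fluid composition, and its glia include oligodendrocytes.

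The RNA came from subfornical organs of 10 to 12 week old male Sprague Dawley rats, with no transgene or mutation, in 3 groups: water-deprived, food-deprived and untreated control. Each group had 5 arrays, each array carried the pooled organs of 5 animals cut from a 1 mm brain slice, and the arrays keep the numbers that the labels give them. Food was withheld for 48 h in the food-deprived group. Read literally, the design text has food withheld in all 3 conditions, and the length of water deprivation is not given in the sources used here. Values are signal intensities in arbitrary units that the authors had scaled to a common level per array. Differences are log2 values of (signal + 16), which understate the change of dim genes, with the standard error (SE) from a limma fit of all 15 arrays. Adjusted p-values are limma values with Benjamini-Hochberg adjustment over 21729 probe sets. In RNA from a whole tissue, fewer cells of a type and less RNA per cell cannot be told apart.

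The arrays differed in the ratio of 5' to 3' signal of the control probe sets for Actb and Gapdh, which falls where RNA is degraded or amplified in shorter pieces. The high set, split at a mean log2 ratio of -1, held water-deprived arrays 1 and 2 and all 5 food-deprived arrays. The low set held water-deprived arrays 3 to 5 and all 5 controls. Mean log2 ratios ran from -0.86 to -0.71 in the high set and from -1.67 to -1.24 in 7 arrays of the low set, and water-deprived array 3 stood apart at -2.81. Food deprivation and control therefore have no array set in common, and differences are also given with the array set as a term in the fit (11 residual degrees of freedom). There the difference of food deprivation from control rests on the water-deprived arrays as a bridge, and otherwise array set and treatment cannot be told apart.

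The array-to-array spread of these genes within a group was large, and none of the 30 passed the test between any 2 groups after adjustment. Against control, limma called 0 of 30 in water deprivation, where it called 0.00460% of all probe sets, and 3 had an unadjusted p under 0.05 (6.50% of all probe sets). Food deprivation gave 0 of 30 against control, where it called 8.53% of all probe sets, and 6 had an unadjusted p under 0.05 (26.3% of all). Water against food deprivation gave 0 of 30, where 0.152% of all probe sets were called, and 11 had an unadjusted p under 0.05 (15.8% of all). Adding the array set as a term gave again 0 of 30 in each comparison, against 0.0276%, 0% and 0% of all probe sets in the same order. An unadjusted p under 0.05 was then held by 1, 0 and 1 members, against 5.96%, 8.65% and 10.0% of all probe sets.

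**Figure D1:**
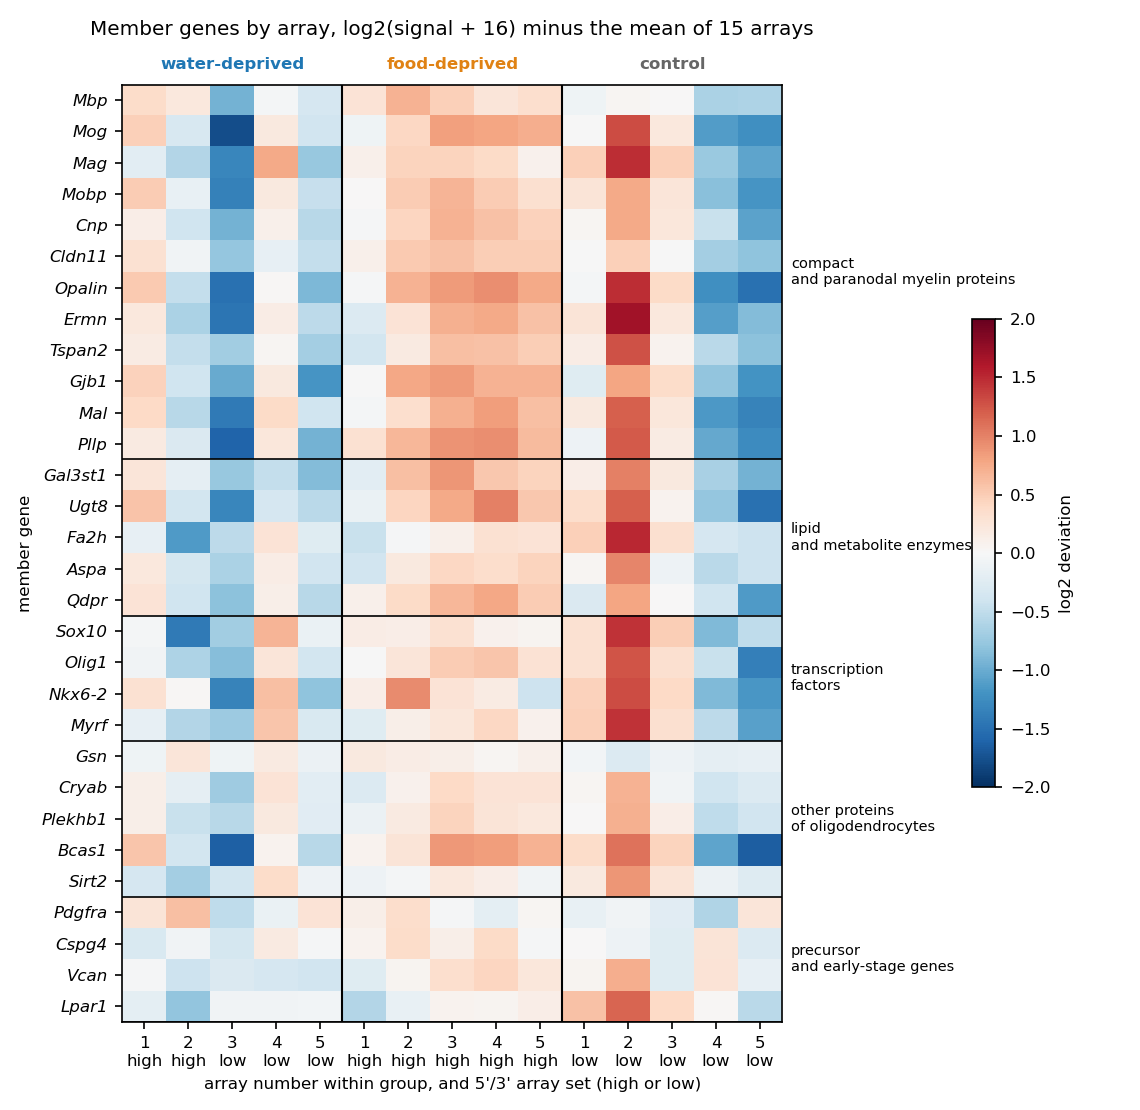
Heat map of the 30 tested genes (rows, grouped by role) in the 15 arrays (columns, with array number and 5'/3' set), coloured by log2(signal + 16) minus the gene's mean over 15 arrays. Most rows share the same pattern of dark and light columns, with control array 2 highest in 27 of 30 rows among the controls and water-deprived array 3 lowest in 22 of 30 rows among the water-deprived arrays, while Gsn, Pdgfra and Cspg4 do not follow it.

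Sequences upstream of the start sites are shown for 5 myelin proteins, 4 with motif matches (Mbp, Opalin, Cnp and Mal) and 1 with none (Pllp), and for Gsn and Pdgfra. Within groups, Opalin, Cnp, Mal and Pllp correlated at 0.9 or more with the other members and Mbp at 0.74. Gsn and Pdgfra varied apart. Each sequence runs from 250 bases before to 50 bases after a RefSeq start site of the GRCr8 build, 5' to 3' on the gene's strand. Capitals mark 3 motifs searched on both strands. These were the Sox core ACAAAG or ACAATG, the E-box CAGCTG, a form bound by Olig factors, and CTGGCAC, a form of the Myrf motif. None of the matches shown overlaps another.
Mbp, chr18:78209995-78210294, plus strand: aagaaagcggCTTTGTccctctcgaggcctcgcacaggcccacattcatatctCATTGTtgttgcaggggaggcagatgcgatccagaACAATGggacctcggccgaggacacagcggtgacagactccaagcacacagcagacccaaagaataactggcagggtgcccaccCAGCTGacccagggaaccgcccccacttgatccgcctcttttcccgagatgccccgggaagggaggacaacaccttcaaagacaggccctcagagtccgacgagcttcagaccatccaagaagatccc
Opalin, chr1:249858141-249858440, minus strand: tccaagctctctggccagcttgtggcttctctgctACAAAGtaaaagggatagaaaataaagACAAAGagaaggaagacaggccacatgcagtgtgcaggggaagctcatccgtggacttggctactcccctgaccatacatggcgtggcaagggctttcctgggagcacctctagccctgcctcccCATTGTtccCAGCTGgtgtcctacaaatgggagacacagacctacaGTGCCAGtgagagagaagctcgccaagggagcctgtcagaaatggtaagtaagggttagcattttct
Cnp, chr10:86011254-86011553, plus strand: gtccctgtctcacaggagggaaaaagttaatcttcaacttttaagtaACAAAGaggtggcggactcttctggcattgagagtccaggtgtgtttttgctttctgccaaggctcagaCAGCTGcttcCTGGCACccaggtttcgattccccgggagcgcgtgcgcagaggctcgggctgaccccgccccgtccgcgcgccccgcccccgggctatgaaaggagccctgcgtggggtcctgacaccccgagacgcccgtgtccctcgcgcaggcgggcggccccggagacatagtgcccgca
Mal, chr3:135341374-135341673, minus strand: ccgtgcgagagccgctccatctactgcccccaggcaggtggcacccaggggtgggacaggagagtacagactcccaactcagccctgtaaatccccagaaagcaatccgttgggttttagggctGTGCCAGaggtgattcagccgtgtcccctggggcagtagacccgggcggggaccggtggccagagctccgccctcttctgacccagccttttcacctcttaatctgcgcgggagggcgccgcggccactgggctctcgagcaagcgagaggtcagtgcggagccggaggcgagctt
Pllp, chr19:10320830-10321129, plus strand: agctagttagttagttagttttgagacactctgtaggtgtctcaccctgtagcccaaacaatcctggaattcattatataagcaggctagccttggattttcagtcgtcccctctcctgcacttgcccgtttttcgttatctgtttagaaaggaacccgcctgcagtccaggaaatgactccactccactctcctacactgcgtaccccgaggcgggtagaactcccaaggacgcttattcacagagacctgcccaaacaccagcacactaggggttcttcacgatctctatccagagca
Gsn, chr3:39008682-39008981, plus strand: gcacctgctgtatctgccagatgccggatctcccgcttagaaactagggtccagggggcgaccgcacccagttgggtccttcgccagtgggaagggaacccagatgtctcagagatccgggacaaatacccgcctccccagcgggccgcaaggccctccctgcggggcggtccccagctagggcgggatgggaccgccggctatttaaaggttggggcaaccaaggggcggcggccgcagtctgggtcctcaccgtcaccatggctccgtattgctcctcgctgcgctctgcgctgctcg
Pdgfra, chr14:33408467-33408766, minus strand: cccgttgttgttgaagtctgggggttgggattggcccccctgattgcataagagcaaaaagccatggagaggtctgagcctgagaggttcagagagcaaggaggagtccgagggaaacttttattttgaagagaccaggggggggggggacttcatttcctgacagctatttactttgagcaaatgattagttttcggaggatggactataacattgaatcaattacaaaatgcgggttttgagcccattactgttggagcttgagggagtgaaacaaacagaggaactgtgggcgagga
Opalin held 3 Sox cores, 1 E-box and 1 CTGGCAC, and Cnp held 1 of each. The Mbp window shown, the downstream of 2 RefSeq starts, held 3 Sox cores and 1 E-box, and the window of the other start, at chr18:78130402-78130701, held no match. Mal held 1 CTGGCAC, and Pllp, Gsn and Pdgfra held no match. Matches did not go with the shared variation one for one. Of the 19 genes most correlated with the other members (at least 0.9 within groups, as given further on), 13 had a window, and 6 of these held a match (Mag, Mobp, Cnp, Opalin, Aspa and Mal) and 7 held none (Cldn11, Ugt8, Tspan2, Gjb1, Pllp, Plekhb1 and Qdpr). Of the other tested genes, 9 had a window and Mbp alone held a match. RefSeq windows were matched for 24 of the 32 genes, with 26 start sites, and 6 of the 26 held a Sox core, 4 the E-box and 5 CTGGCAC. Over all 33469 windows of the same length the shares were 29.1%, 15.1% and 4.75% in that order. A match describes these letters and not a bound site.

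The 12 genes grouped as myelin proteins, not all of them of compact or paranodal myelin, showed the array pattern plainly. Mog, the myelin oligodendrocyte glycoprotein of the outermost lamella, had signals of 625, 350, 118, 507 and 335 in water-deprived arrays 1 to 5, 417, 594, 795, 777 and 740 in food-deprived arrays 1 to 5, and 440, 1120, 513, 195 and 180 in control arrays 1 to 5. The 3 groups overlapped, since the highest and the second lowest of the 15 signals were both controls. Mog averaged 387 ± 192 in water-deprived, 665 ± 159 in food-deprived and 489 ± 382 in control arrays (SD, n = 5 each).

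Opalin, a transmembrane glycoprotein of oligodendrocytes, repeated this order of arrays. Its signals were 390, 186, 84.5, 270 and 136 in water-deprived arrays, 262, 438, 492, 518 and 460 in food-deprived arrays, and 258, 769, 349, 105 and 83.5 in controls. Mal, a raft-associated proteolipid of myelin, had 967, 495, 266, 955 and 552 in water-deprived arrays, 714, 926, 1207, 1323 and 1114 in food-deprived arrays, and 835, 1694, 854, 322 and 279 in controls. For both genes control 2 was the highest of all 15 arrays and controls 4 and 5 were among the 4 lowest, so that the range within the control group enclosed the food-deprived group. The highest control was 9.21 times the lowest for Opalin and 6.07 times for Mal, against 1.98 and 1.85 times in food deprivation.

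Pllp, plasmolipin, a tetraspan protein of myelin membrane, was the only gene of the 30 in which water-deprived and food-deprived arrays did not overlap. It had 230, 163, 55.6, 239 and 96.4 in water-deprived arrays, 253, 327, 387, 398 and 320 in food-deprived arrays, and 187, 491, 226, 90.4 and 74.6 in controls. Over all probe sets, 2.05% were without overlap in that direction. The difference of water from food deprivation was -1.17 (SE 0.42, 95% interval -2.05 to -0.29, adjusted p = 0.192), and with the array set as a term it was -0.74 (95% interval -1.89 to 0.42).

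Mbp, the basic protein that joins the inner faces of the myelin membrane, and Cldn11, the claudin of its tight junctions, varied less among controls than Mog did. Mbp had 4315, 3867, 1716, 3235 and 2630 in water-deprived arrays, 4026, 5402, 4658, 3932 and 4186 in food-deprived arrays, and 3143, 3406, 3359, 2149 and 2159 in controls. All 5 food-deprived arrays were above all 5 controls, which 9.84% of all probe sets also showed, and the water-deprived arrays spanned both groups. Food deprivation minus control was 0.66 for Mbp (SE 0.21, 95% interval 0.21 to 1.11, adjusted p = 0.0641) and -0.08 with the array set as a term (95% interval -0.72 to 0.57). For Mbp, the high array set minus the low set was 0.74 (SE 0.25, adjusted p = 0.0574) in that fit. This value rests on the water-deprived arrays alone, the only group with arrays in both sets. Water-deprived array 3 (1716), the lowest of them, also had the lowest mean log2 5'/3' ratio, -2.81. The fit with the array set was not repeated without that array.

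Cldn11 had 2262, 1740, 1060, 1629 and 1314 in water-deprived arrays, 1966, 2642, 2737, 2573 and 2586 in food-deprived arrays, and 1819, 2540, 1815, 1132 and 1039 in controls. Of the food-deprived arrays, 4 were above the highest control, and the lowest, array 1, was below it. Its difference of food deprivation from control was 0.65 (SE 0.23, adjusted p = 0.0856), and 0.06 with the array set as a term (95% interval -0.72 to 0.84).

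Gjb1, connexin 32, which forms gap junctions of oligodendrocytes, was dim. It had 42.5, 16.3, 5.1, 32.9 and 2.9 in water-deprived arrays, 26.6, 56.8, 61.0, 52.9 and 53.1 in food-deprived arrays, and 19.9, 57.4, 38.7, 8.6 and 2.6 in controls. The 4 signals under the added 16 were in water-deprived arrays 3 and 5 and controls 4 and 5, and there the log2 scale compresses differences. Its difference of water from food deprivation was -0.99 (SE 0.37, adjusted p = 0.210), and -0.58 with the array set as a term (95% interval -1.59 to 0.44).

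The other 5 genes of this group had their highest signals in control 2. Mag, the myelin-associated glycoprotein of the inner periaxonal membrane, had its highest signal in control 2 (697) and its lowest in water-deprived array 3 (88.0), and it averaged 200 ± 129 in water-deprived, 300 ± 39.5 in food-deprived and 325 ± 235 in control arrays. Mobp, a basic protein of compact myelin, ran from 1036 in water-deprived array 3 to 4505 in control 2. Cnp, the cyclic nucleotide phosphodiesterase of non-compact myelin, ran from 713 in control 5 to 2551 in control 2. Ermn, ermin, an actin-associated protein, and Tspan2, a tetraspanin of maturing oligodendrocytes, also peaked in control 2, at 1067 and 1171.
Over the 12 proteins, the median difference was -0.21 in water deprivation against control, 0.65 in food deprivation against control and -0.78 in water against food deprivation. The medians of all probe sets were 0.002, 0.05 and -0.04 in that order. Both comparisons against control share the 5 control arrays, so their values are not independent of each other. In the fit that holds the array set, the 3 medians for the 12 proteins were -0.46, 0.04 and -0.56, against -0.03, -0.02 and -0.009 for all probe sets.

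**Figure D2:**
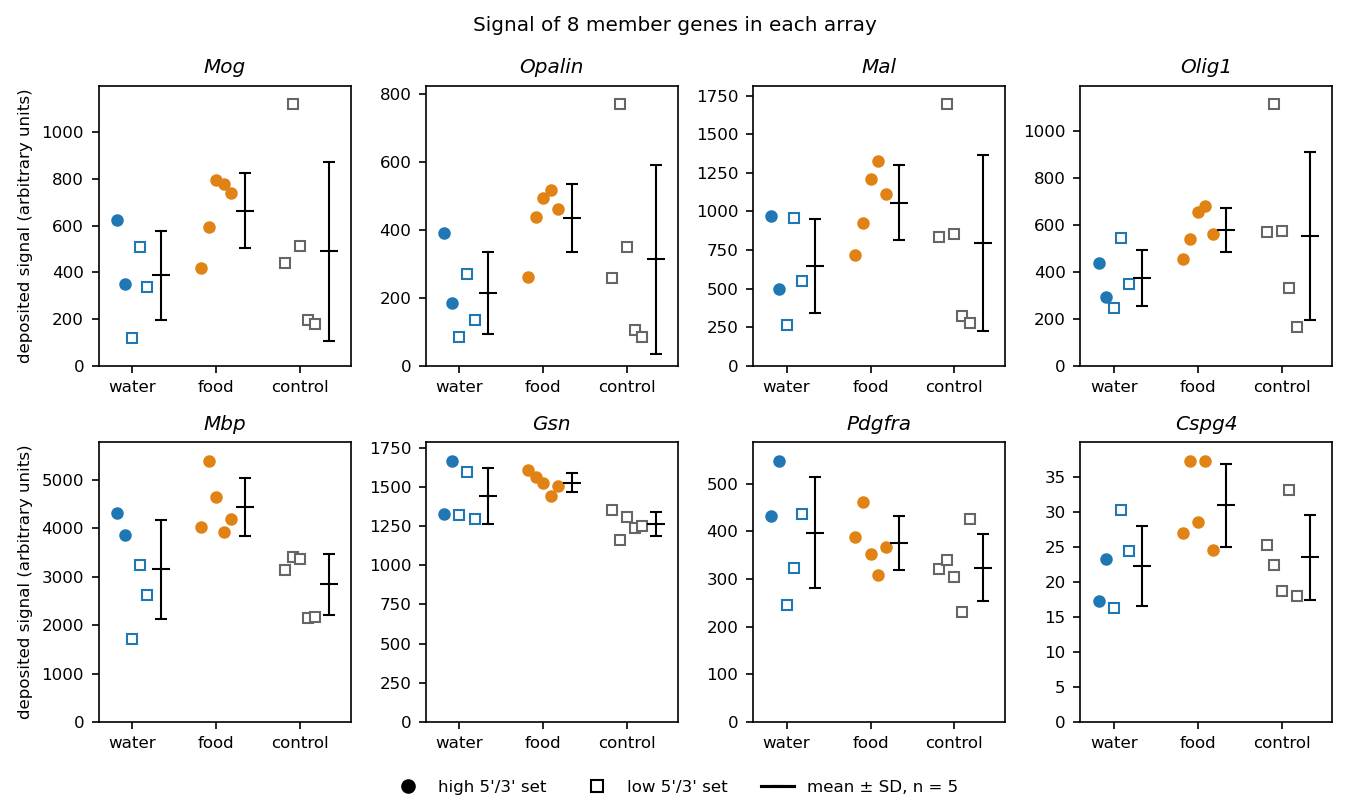
Signals of 8 genes (arbitrary units, linear axes from 0) in each water-deprived, food-deprived and control array, with the mean and SD of 5 arrays beside the points and filled or open symbols for the high or low 5'/3' set. Mog, Opalin, Mal and Olig1 have control array 2 on top and overlapping groups, all 5 food-deprived arrays lie above the controls for Mbp and Gsn, and Pdgfra and Cspg4 show neither.

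Of the 5 enzymes of lipids and metabolites, Ugt8 and Gal3st1 make the galactosylceramide and sulfatide of myelin, Fa2h hydroxylates their fatty acids, Aspa cleaves N-acetylaspartate and Qdpr recycles tetrahydrobiopterin. Qdpr had 978, 606, 446, 871 and 544 in water-deprived arrays, 858, 1052, 1283, 1381 and 1145 in food-deprived arrays, and 653, 1394, 809, 603 and 356 in controls. All 5 food-deprived arrays lay above the control mean but below control 2. Food deprivation minus control was 0.69 for Qdpr (SE 0.28, adjusted p = 0.135), and water minus food deprivation was -0.76 (SE 0.28, adjusted p = 0.214). Both differences of Qdpr were smaller in the fit that holds the array set, at 0.33 (95% interval -0.74 to 1.40) and -0.54 (95% interval -1.35 to 0.26).

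Ugt8 ran from 41.2 in control 5 to 351 in control 2, and Gal3st1 from 18.2 in control 5 to 116 in control 2. Aspa had its highest signal, 259, in control 2 as well, and its 15 arrays spread less than those of Ugt8. Fa2h had 66.3, 26.0, 48.1, 94.4 and 61.4 in water-deprived arrays, 51.7, 74.7, 82.5, 97.9 and 95.1 in food-deprived arrays, and 112, 245, 98.2, 56.8 and 52.8 in controls. Unlike the other 4 enzymes, Fa2h had a difference below 0 in food deprivation against control, -0.26 (95% interval -0.94 to 0.41), and its difference in water deprivation against control was -0.67 (95% interval -1.34 to 0.01, adjusted p = 0.752). In the fit that holds the array set, those of Fa2h were 0.21 (95% interval -0.97 to 1.40) and -0.48 (95% interval -1.26 to 0.30).

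The transcription factors of the lineage had the widest range among controls. In the mean log2(signal + 16) of Sox10, Olig1, Nkx6-2 and Myrf, the highest control was 5.27 times the lowest, against 2.67 times in water deprivation and 1.28 times in food deprivation. Sox10, which drives the expression of myelin genes together with Myrf, had 63.6, 14.6, 34.6, 115 and 58.2 in water-deprived arrays, 74.4, 73.6, 85.2, 70.2 and 69.0 in food-deprived arrays, and 84.7, 206, 99.1, 28.0 and 41.4 in controls. The food-deprived arrays lay close together inside the range of the controls, and the difference of food deprivation from control was -0.02 (95% interval -0.85 to 0.81), and 0.65 with the array set as a term (95% interval -0.78 to 2.09).

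Olig1, a basic helix-loop-helix factor of the lineage, had 436, 291, 247, 543 and 349 in water-deprived arrays, 454, 540, 657, 681 and 561 in food-deprived arrays, and 569, 1114, 575, 332 and 167 in controls. Its highest and lowest signals were both in the control group. The differences of Olig1 were -0.35 in water deprivation against control (95% interval -1.10 to 0.40) and -0.65 in water against food deprivation (95% interval -1.40 to 0.10), and with the term -0.34 and -0.66. Myrf, the membrane-bound factor that switches on myelin genes, ran from 76.1 in control 5 to 520 in control 2, and Nkx6-2, a homeodomain factor of myelinating cells, from 4.0 in water-deprived array 3 to 108 in control 2. Olig2, the partner of Olig1 that specifies the lineage, was under the filter, with 9.8 to 30.3 in water-deprived, 14.4 to 26.1 in food-deprived and 2.3 to 26.9 in control arrays.
The median over the 4 tested factors was -0.36 in water deprivation against control, 0.10 in food deprivation against control and -0.47 in water against food deprivation, and -0.31, 0.26 and -0.58 in that order with the array set as a term.

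Of 5 further oligodendrocyte proteins, Bcas1, which marks cells that are beginning to myelinate, followed the myelin proteins. Its signals were 1666, 867, 351, 1179 and 763 in water-deprived arrays, 1186, 1353, 2052, 2015 and 1821 in food-deprived arrays, and 1458, 2391, 1541, 530 and 347 in controls. Cryab, a small heat shock protein, and Plekhb1, a membrane-associated protein with a pleckstrin homology domain, followed Bcas1 with smaller ranges, from 209 to 579 and 770 to 1859. Sirt2, a tubulin deacetylase of myelin, ran from 309 in water-deprived array 2 to 947 in control 2 and followed Bcas1 less closely. Food deprivation minus control was -0.16 for Sirt2 and 0.71 for Bcas1, and 0.31 and -0.09 with the array set as a term. Sirt2 was the 1 member with an unadjusted p under 0.05 in water against food deprivation with the array set as a term, at -0.54 (95% interval -1.07 to -0.01, adjusted p = 0.486).

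Gsn, gelsolin, an actin-severing protein that is also made by many other cell types, varied least of the 30 genes within groups. It had 1326, 1667, 1317, 1597 and 1295 in water-deprived arrays, 1608, 1560, 1522, 1439 and 1505 in food-deprived arrays, and 1353, 1158, 1308, 1240 and 1251 in controls. All 5 food-deprived arrays were above all 5 controls, and control 2, the highest control for most other members, was the lowest for Gsn. The difference of food deprivation from control was 0.27 (SE 0.08, 95% interval 0.09 to 0.45, adjusted p = 0.0552), and 0.18 with the array set as a term (95% interval -0.11 to 0.48). Mbp and Gsn were the 2 of 30 genes without overlap between food-deprived and control arrays, a share below the 9.84% of all probe sets.

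The 4 genes of precursors and early stages had, as a group, the smallest range of mean level of the 5 roles in each of the 3 groups, 1.25-fold among food-deprived and 1.53-fold among control arrays and below both among water-deprived arrays. Taken singly, they ranged more widely in signal among controls, 1.84-fold for Cspg4, 1.85-fold for Pdgfra, 2.13-fold for Vcan and 3.38-fold for Lpar1. Pdgfra, the receptor that keeps precursors dividing, had 431, 548, 246, 323 and 435 in water-deprived arrays, 388, 461, 352, 308 and 367 in food-deprived arrays, and 321, 339, 304, 230 and 425 in controls. Cspg4, the NG2 proteoglycan, had 17.3, 23.2, 16.3, 30.3 and 24.4 in water-deprived arrays, 27.0, 37.2, 28.5, 37.3 and 24.5 in food-deprived arrays, and 25.2, 22.4, 18.7, 33.1 and 18.0 in controls. For both, the groups overlapped and control 2 was not the highest control. The differences of Pdgfra were 0.26 in water deprivation against control (95% interval -0.14 to 0.66), 0.22 in food deprivation against control (-0.19 to 0.62) and 0.04 in water against food deprivation (-0.36 to 0.44). With the array set as a term, those of Pdgfra were 0.04, -0.34 and 0.37, each with a 95% interval that held 0.

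Vcan, versican, a proteoglycan of precursors and of other matrix-producing cells, had 95.3, 69.1, 77.4, 73.9 and 71.3 in water-deprived arrays, 80.5, 102, 127, 136 and 117 in food-deprived arrays, and 102, 171, 80.2, 121 and 84.9 in controls. Water-deprived arrays 2 to 5 were below all controls. The difference of water deprivation from control was -0.42 (SE 0.17, 95% interval -0.78 to -0.06, adjusted p = 0.748), and -0.46 with the array set as a term (95% interval -0.89 to -0.04, adjusted p = 0.802). Lpar1, a lysophosphatidic acid receptor of oligodendrocytes, had 362, 234, 393, 396 and 399 in water-deprived arrays, 271, 373, 438, 429 and 458 in food-deprived arrays, and 632, 950, 555, 421 and 281 in controls. All water-deprived and food-deprived arrays of Lpar1 lay below the 3 highest controls, with differences from control of -0.56 in water deprivation (95% interval -1.09 to -0.03, adjusted p = 0.752) and -0.42 in food deprivation (95% interval -0.96 to 0.11). In the fit that holds the array set, those of Lpar1 were -0.39 (adjusted p = 0.911) and -0.0007 (95% interval -0.93 to 0.93).

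Over the 30 genes together, 27 differences were below 0 in water deprivation against control with a median of -0.25, 25 were above 0 in food deprivation against control with a median of 0.29, and 29 were below 0 in water against food deprivation with a median of -0.64. Of all probe sets, 49.5% were below 0, 56.8% above 0 and 57.6% below 0 in that order. In the fit that holds the array set, 27 were below 0 (median -0.38), 16 above 0 (median 0.04) and 29 below 0 (median -0.45). There 56.5% of all probe sets were below 0, 46.7% above 0 and 51.5% below 0 in that order. The genes vary together, so these counts are not 30 independent observations, and single arrays moved them. Without control 2, the median was 0.04 in water deprivation against control, and 14 genes turned sign. Without control 5 it was -0.51, and without water-deprived array 3 it was -0.03. In food deprivation against control the median was 0.60 without control 2, and in water against food deprivation it was -0.47 without water-deprived array 3.

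**Figure D3:**
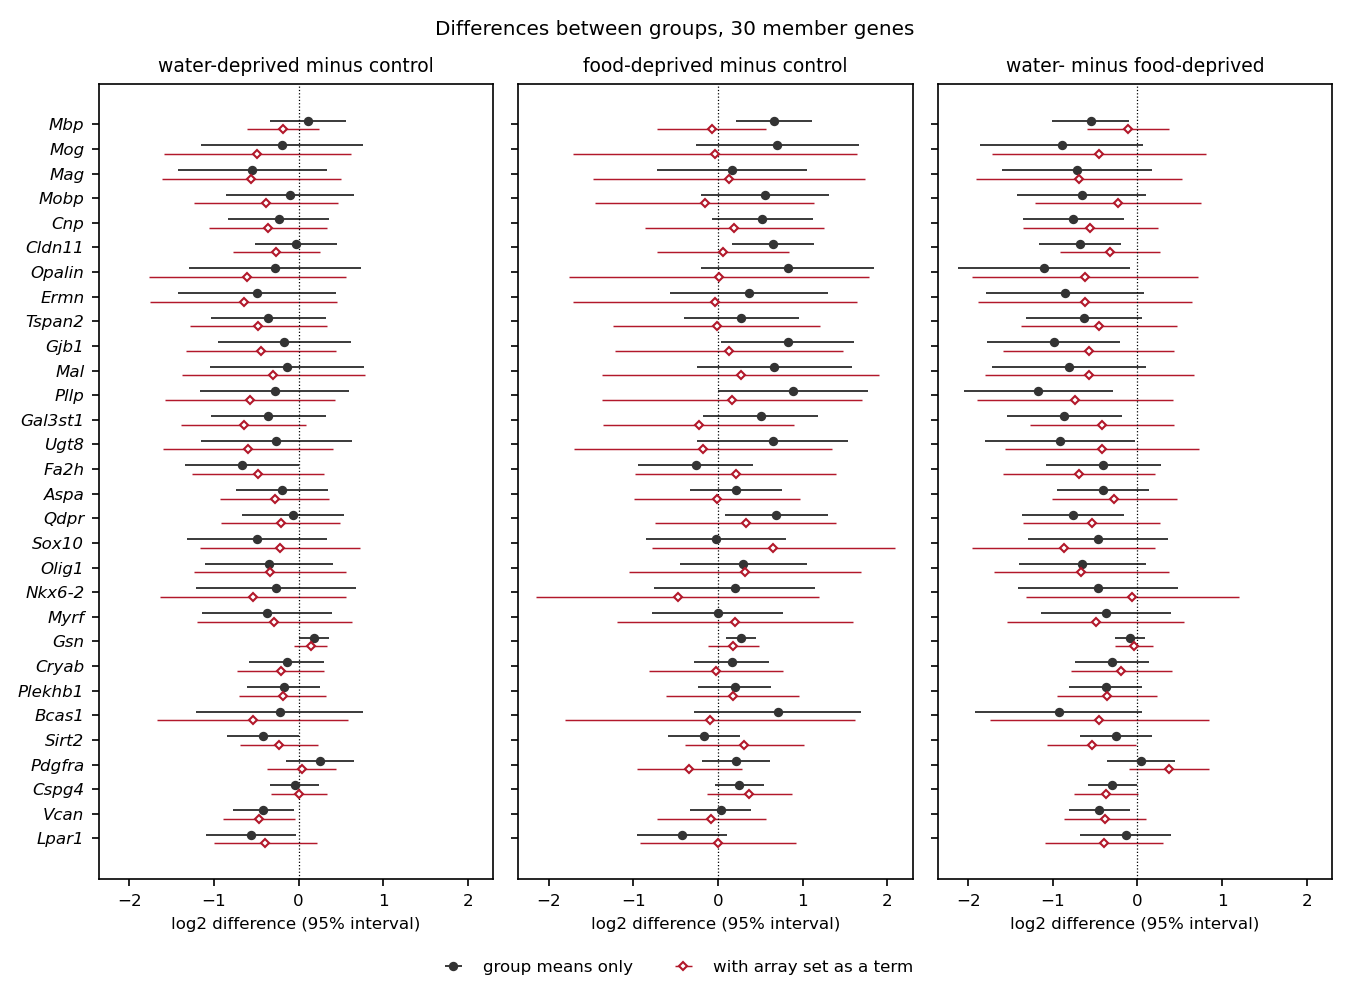
Log2 differences of the 30 genes, water-deprived minus control (left), food-deprived minus control (middle) and water-deprived minus food-deprived (right), as filled circles with 95% intervals from the fit of group means and open diamonds from the fit that also holds the array set. Most circles lie below 0 on the left and right and above 0 in the middle, and in the middle panel the diamonds scatter around 0, with 16 above and 14 below.

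The spread within groups was wide for most of these genes. The median within-group SD was 0.57 on the log2 scale, against 0.24 over all tested probe sets, and 17 of the 30 exceeded 0.55, the 95th percentile of all probe sets. Mean deviations over the 30 genes ran from -0.90 in array 3 to 0.16 in array 1 of the water-deprived group, from -0.06 in array 1 to 0.50 in array 3 of the food-deprived group, and from -0.83 in array 5 to 0.94 in array 2 of the controls. On the (signal + 16) scale the highest control was thus 3.41 times the lowest, against 2.08 times in water deprivation and 1.48 times in food deprivation. Within roles, the ratio among controls was 4.33 for the myelin proteins and 1.53 for the precursor and early-stage genes. The latter is a mean over genes that did not all vary together, with a within-group correlation of -0.16 between Pdgfra and Cspg4.
Food-deprived array 1 was the lowest of its group for 23 of the 30 genes, and control 5 was the lowest control for 21.

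After subtraction of group means, 19 of the 30 genes had a correlation of at least 0.9 over the 15 arrays with the mean of the other members, led by Mal (0.99), Opalin (0.98), Cnp (0.98) and Ermn (0.98). Between 0.6 and 0.9 lay 7 genes, among them Mbp (0.74), Sox10 (0.79), Sirt2 (0.77) and Lpar1 (0.74). The 4 genes under 0.6 were Vcan (0.57), Cspg4 (0.12), Pdgfra (0.08) and Gsn (-0.03). Without controls 2 and 5, which are at the ends of the range, the 19 correlations were 0.87 to 0.98 over 13 arrays, and 14 were still at least 0.9. The 7 genes of the middle range had 0.42 to 0.78 without those 2 arrays, with Lpar1 (0.42) and Sirt2 (0.55) below 0.6. Vcan had 0.16, Cspg4 0.03, Pdgfra 0.32 and Gsn 0.22. These points share their RNA pools and their scaling, and the correlations describe these arrays only. Most members thus varied as 1 set in these arrays, and Gsn, Pdgfra and Cspg4 were at 0.32 or less with or without those 2 controls. The list was chosen with earlier results of these data known, so these correlations do not test its label.

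A further list of 58 oligodendrocyte lineage genes, of which 43 passed the filter, moved with the 30 members, with a within-group correlation of 0.99 between the 2 mean levels. That list too was chosen with earlier results of these data known. In water deprivation against control, 0 of 43 were called (0.00460% of all probe sets) and 1 had an unadjusted p under 0.05 (6.50% of all). The median was -0.17 (-0.15 with the array set as a term). In food deprivation against control, 2 of 43 rose and 0 fell by limma, with a median of 0.23, where 4.77% of all probe sets rose and 3.76% fell. After the array set entered the fit, 0 of 43 were called (3 at an unadjusted p under 0.05, 8.65% of all probe sets). The median was then 0.07, and 24 of 43 were above 0, against 46.7% of all probe sets. The 2 were Apod, apolipoprotein D, a lipocalin that carries small lipids, at 0.65 (SE 0.17, adjusted p = 0.0316), and Cspg5, neuroglycan C, a proteoglycan of precursors and of other neural cells, at 0.67 (SE 0.19, adjusted p = 0.0440). In the fit that holds the array set they were 0.30 (adjusted p = 0.761) and 0.60 (adjusted p = 0.633).

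Apod had 1941, 1271, 1138, 1512 and 1082 in water-deprived arrays, 1754, 2057, 2215, 2604 and 2180 in food-deprived arrays, and 1410, 1919, 1283, 1328 and 1013 in controls. Of the food-deprived arrays, 4 were above the highest control. Cspg5 had 83.5, 94.6, 44.1, 135 and 93.3 in water-deprived arrays, 129, 116, 135, 157 and 123 in food-deprived arrays, and 62.6, 95.1, 92.4, 81.1 and 58.0 in controls. All food-deprived arrays of Cspg5 lay above all controls, which 9.84% of all probe sets also showed. In water against food deprivation, 0 of 43 were called (0.152% of all probe sets) and 11 had an unadjusted p under 0.05 (15.8% of all). The median was -0.39 (-0.36 with the array set as a term).

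**Figure D4:**
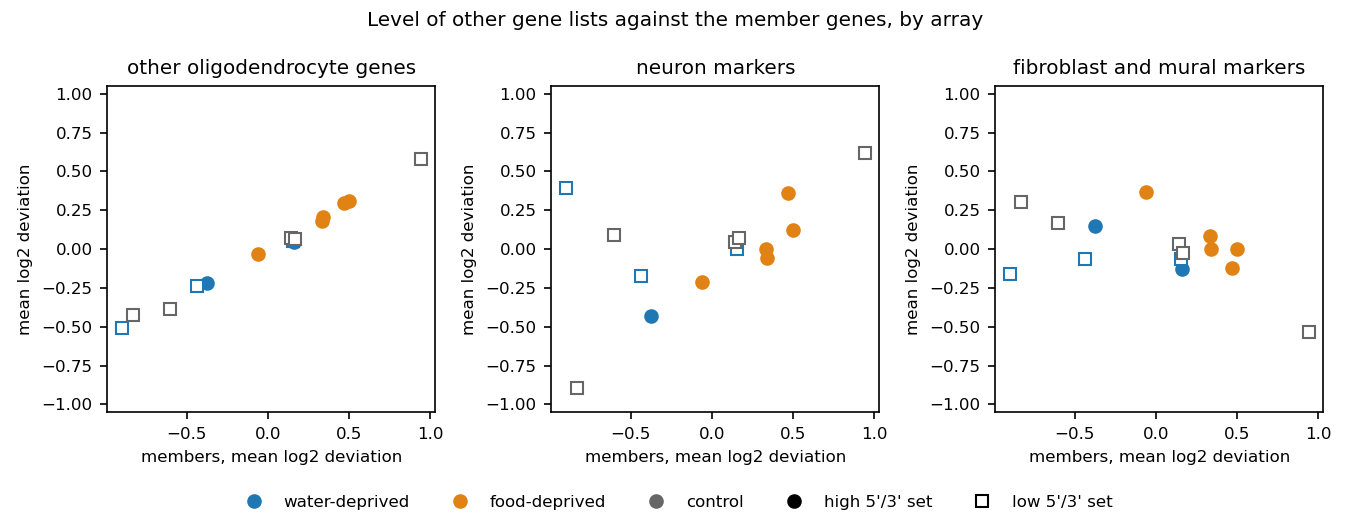
Mean log2 deviation of other gene lists (vertical axes) against the mean log2 deviation of the 30 genes (horizontal axes) in the 15 arrays, coloured by group and with filled or open symbols for the high or low 5'/3' set. The other oligodendrocyte genes lie along a line, and for neuron markers the within-group correlation of 0.57 becomes -0.01 without control arrays 2 and 5.

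Markers of other cell types differed between the same arrays. The within-group correlation of the member mean was 0.57 with 15 neuron markers, 0.52 with 12 astrocyte markers, 0.29 with 12 microglia markers, -0.06 with 9 choroid plexus and ependyma markers, -0.55 with 9 endothelial markers and -0.75 with 11 fibroblast and mural markers. Without controls 2 and 5 the neuron value was -0.01, the astrocyte value -0.13, the microglia value -0.02, the endothelial value -0.49 and the fibroblast and mural value -0.42. That of choroid plexus and ependyma was 0.53, and that of the other oligodendrocyte genes was 0.996. In control 2, the summed signal was highest among controls for neurons (14828, against 5145 in control 5) and lowest for fibroblasts and mural cells (1542, against 5682 in control 5). Water-deprived array 3, lowest for most members, had the highest neuron sum (12346) and the lowest choroid plexus and ependyma sum (3451, against 16395 in array 2) of its group.
By group, the summed neuron signal ran from 6966 to 12346 in water-deprived, 8177 to 13058 in food-deprived and 5145 to 14828 in control arrays, that of fibroblast and mural markers from 2329 to 4598, 2268 to 4424 and 1542 to 5682, and that of choroid plexus and ependyma from 3451 to 16395, 7546 to 14108 and 5126 to 12273. Of the markers with a probe set, 1 of neurons, 1 of microglia, 1 of choroid plexus and ependyma and 2 of fibroblasts and mural cells were below the filter. The part of these differences between pools in the values of the myelin genes was not tested.

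The 4 members apart from the rest also differed in the lists they varied with. Pdgfra had a within-group correlation of 0.76 with choroid plexus and ependyma markers (0.89 without controls 2 and 5). Its values were -0.73 with microglia (-0.72), -0.64 with neuron (-0.82) and -0.62 with astrocyte markers (-0.82). Vcan had 0.70 with neuron, 0.69 with astrocyte and -0.78 with fibroblast and mural markers (0.57, 0.43 and -0.52 without those 2 arrays). Gsn had 0.52 with fibroblast and mural, 0.51 with choroid plexus and ependyma and -0.43 with neuron markers. Without those 2 arrays these were 0.53, 0.48 and -0.62. The correlations of Cspg4 with the 7 lists lay between -0.22 and 0.14 over the 15 arrays and between -0.41 and 0.22 without controls 2 and 5.

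Outside the members, 8 of 11480 genes were most like the mean of the members within groups over the 15 arrays. Slc44a1, a choline transporter-like protein, led with a correlation of 0.99, followed by Ppp1r14a, an inhibitor of a myosin phosphatase (0.99), Ttyh2, of the tweety family (0.99), Depdc7 (0.98), Hapln2, a hyaluronan link protein of nodes of Ranvier (0.98), Fah, an enzyme of tyrosine breakdown (0.98), Gpr37, an orphan receptor (0.97), and Tprn, taperin (0.97). Of these, 3 (Ppp1r14a, Hapln2 and Gpr37) were in the further oligodendrocyte list. None of the 8 was called in any comparison, and the differences of water from food deprivation lay between -0.82 for Gpr37 and -0.39 for Tprn.

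Several probe sets of 1 gene gave different differences. Counting all 42 member probe sets past the filter, limma called 1 in food deprivation against control, 0 in water deprivation against control and 0 in water against food deprivation, against 8.53%, 0.00460% and 0.152% of all probe sets. An unadjusted p under 0.05 was held by 15, 5 and 19, against 26.3%, 6.50% and 15.8%. The 1 called was a dimmer probe set of Vcan, 1371232_a_at, at -1.01 (SE 0.21, adjusted p = 0.0105), which had 22.6, 22.8, 25.5, 32.4 and 43.2 in water-deprived arrays, 25.3, 13.9, 27.6, 31.4 and 4.8 in food-deprived arrays, and 58.3, 78.9, 48.5, 50.9 and 42.7 in controls. For the same comparison another Vcan probe set, 1388054_a_at, gave -0.71 (SE 0.22, adjusted p = 0.0550), but the brightest gave 0.03 (95% interval -0.33 to 0.39). With the array set as a term, the difference of 1371232_a_at was -0.67 (adjusted p = 0.616) and that of 1388054_a_at was -0.51 (adjusted p = 0.693). In water deprivation against control the 3 tested Vcan probe sets had the same direction. The brightest gave -0.42, 1388054_a_at -0.59 and 1371232_a_at -0.66. All 3 were among the 5 with an unadjusted p under 0.05, and the others were of Gsn and Lpar1.

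A second Mbp probe set, 1387341_a_at, had 2290, 1234, 52.7, 601 and 415 in water-deprived arrays, 1755, 2571, 3003, 2546 and 2114 in food-deprived arrays, and 444, 1439, 863, 231 and 120 in controls. The lowest of the 7 arrays of the high 5'/3' set, 1234, was above 7 of the 8 arrays of the low set, and control 2 was the exception. Food deprivation minus control was 2.38 (SE 0.76, adjusted p = 0.0624) with this probe set, 0.66 with the brightest and -0.16 with another. With the array set as a term it was -0.31 (SE 1.08).
Another probe set of Mobp gave 1.56 for food deprivation against control, where the brightest gave 0.56, and a second of Cnp gave 1.06, where the brightest gave 0.52. For Lpar1, the 2 probe sets differed in direction, with -0.42 for the brightest and 0.66 for 1374016_at, neither of them called. In water deprivation against control, 1374016_at gave -0.02, where the brightest gave -0.56. Those probe sets of Mobp and Lpar1 ran above their brightest partner, after centring on the 15 arrays, in every array of the high set relative to every array of the low set. The positions of these probes in the transcripts were not used here, and the part of RNA integrity in these differences was not tested.

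**Figure D5:**
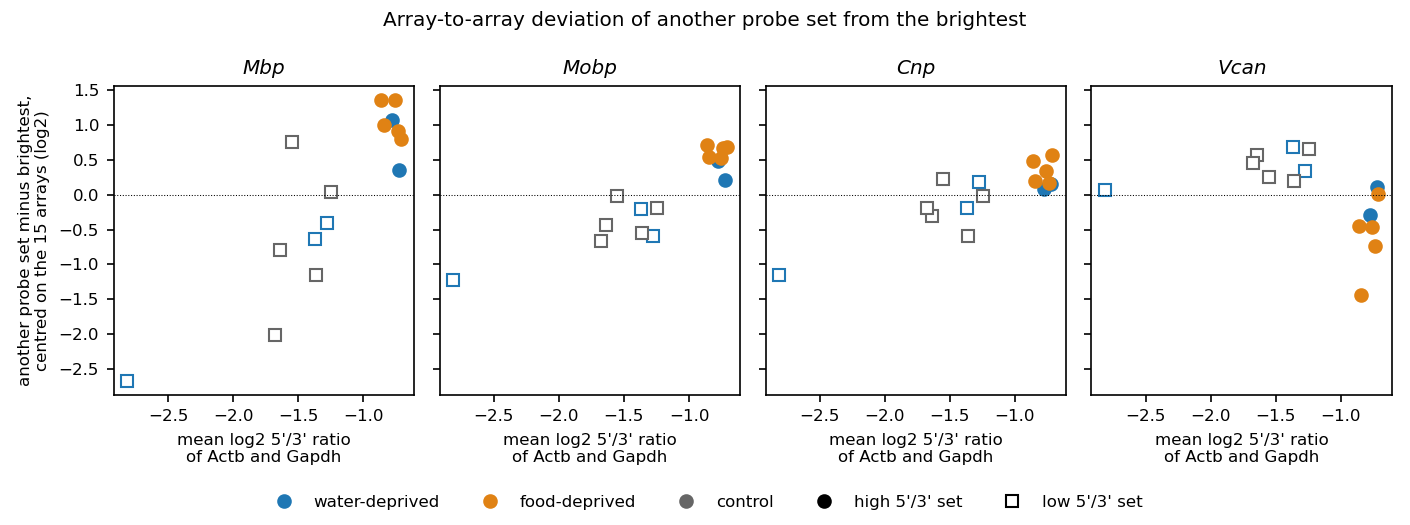
Log2 signal of another probe set minus that of the brightest probe set of the same gene, centred on the 15 arrays (vertical axes), against the mean log2 5'/3' ratio of Actb and Gapdh (horizontal axes), for Mbp, Mobp, Cnp and Vcan, with the probe set of each gene whose medians in the high and low set lie farthest apart. The high set (filled) lies at 0.35 to 1.36 for Mbp and 0.21 to 0.72 for Mobp, the low set (open) at -2.67 to 0.75 and -1.22 to -0.01, and Vcan runs the other way.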

How the data were processed

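The authors deposited 1 linear signal intensity for each probe set and array, and the submitters' processing notes name GCOS 1.2. Tested on the table, every array has a trimmed mean of 100.0 (2% trimmed at each end), so the authors scaled the arrays, and no further normalization was applied. Raw probe intensities and detection calls were not used. Precision is limited by how many arrays there are. The 15 arrays in 3 groups were fitted together with limma 3.58.1 in R 4.3.3 on log2(signal + 16), with 12 residual degrees of freedom and a variance trend, and all 3 contrasts were tested two-sided. Of 31042 non-control probe sets, 20826 carry 1 gene symbol, 436 several and 9780 none. The fit was tested on simulated data.

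The members, roles, marker lists and the split into array sets were chosen with earlier results of these data known. Every member is named. Of the further oligodendrocyte genes those that passed the test are named, and outside the members the 8 that correlate best with them. The arrays of a group are separate pools of 5 animals. Alternatives were other scalings, offsets of 1 and 64, other filters, no variance trend, only the 10 arrays compared, the mean of all probe sets of a gene, the array set as a term, the log2 5'/3' ratio as a covariate, a replicate block and each array left out. Figures used matplotlib 3.10.9.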

Additional observations from a re-analysis of the deposited data

Results flagged for a closer look

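In 93 groups of 5 arrays (31 genes in 3 groups), the lowest or highest array was compared with the others by the gap to its neighbour over the range of the group, with Dixon's critical value of 0.71. Chance flags about 1 in 20 such groups, and 4 of the 93 were past the value. In food-deprived array 1, Cldn11 (signal 1966, the others 2573 to 2737), Opalin (261.7, the others 438 to 518) and Gjb1 (26.6, the others 52.9 to 61.0) were far below the rest of the group, and that array was the lowest of its group for 23 of the 30 tested genes. In water-deprived array 2, Lpar1 had 234.3, against 362 to 399 in the other 4 arrays. The causes were not tested.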

How the results depend on the processing

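Leaving out 1 array at a time, the count of members called higher in food deprivation than in control ran from 0 to 2. It was 2 without water-deprived array 1 or 3 (Mbp and Gsn), 1 without array 2 (Gsn) and 2 without control 2 (Cldn11 and Qdpr). Of all 21729 probe sets, 2346 were called in either direction without water-deprived array 1, 2854 without array 3, 2485 without array 2 and 1521 without control 2. With only the 10 arrays compared, the count of members was 2 (Mbp and Gsn), where 4183 of 21729 probe sets were called. With the mean of all probe sets of a gene, 1 member, Vcan, was called lower in food deprivation than in control. There 1180 of 17714 genes or probe sets without a gene were called. Every other alternative called 0 members in each comparison. The labels number the arrays alike in each group, but same-numbered arrays did not deviate together (correlations from -0.36 to 0.37), and the fit with a replicate block also called 0 members. With the array set as a term, all probe sets called in food deprivation against control were 0, against 1854 without it.

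Single members changed side of 0 mostly in food deprivation against control. With the array set as a term, values on the other side of 0 were in water deprivation against control Mbp -0.19, Cspg4 0.0035, and in food deprivation against control Mbp -0.075, Mog -0.034, Mobp -0.16, Gal3st1 -0.23, Ugt8 -0.18, Fa2h 0.21, Ermn -0.032, Sox10 0.65, Nkx6-2 -0.48, Aspa -0.01, Tspan2 -0.015, Cryab -0.023, Bcas1 -0.094, Myrf 0.21, Sirt2 0.31, Pdgfra -0.34, Vcan -0.079. With quantile normalization, values on the other side of 0 were in water deprivation against control Mbp -0.039, and in food deprivation against control Myrf 0.012. With the mean of all probe sets of a gene, values on the other side of 0 were in water deprivation against control Mbp -0.0012, and in food deprivation against control Vcan -0.57, Lpar1 0.12, and in water against food deprivation Vcan 0.0066. With the 5'/3' ratio as a covariate, values on the other side of 0 were in food deprivation against control Mag -0.18, Ermn -0.015, Nkx6-2 -0.34, Cryab -0.047, Pdgfra -0.058. With an offset of 1, values on the other side of 0 were in food deprivation against control Sox10 0.03, Myrf 0.016. With median centring, values on the other side of 0 were in food deprivation against control Vcan -0.07, and in water against food deprivation Gsn 0.0022. Leaving out 1 array at a time, the range included 0 in water deprivation against control for Mbp -0.021 to 0.31, Mog -0.46 to 0.17, Mobp -0.36 to 0.17, Cldn11 -0.18 to 0.14, Ugt8 -0.60 to 0.066, Opalin -0.61 to 0.13, Nkx6-2 -0.56 to 0.056, Aspa -0.33 to 0.053, Cryab -0.24 to 0.035, Gjb1 -0.41 to 0.083, Mal -0.43 to 0.20, Pllp -0.55 to 0.073, Plekhb1 -0.30 to 0.0031, Bcas1 -0.59 to 0.091, Qdpr -0.30 to 0.18, Cspg4 -0.12 to 0.038. It included 0 in food deprivation against control for Mag -0.13 to 0.51, Fa2h -0.45 to 0.035, Sox10 -0.29 to 0.30, Olig1 -0.046 to 0.61, Nkx6-2 -0.10 to 0.52, Myrf -0.31 to 0.33, Sirt2 -0.28 to 0.0088, Vcan -0.061 to 0.18. It included 0 in water against food deprivation for Pdgfra -0.084 to 0.19. No value that changed sign was called without the alternative, and the cause was not tested. The limits are 5 arrays in a group, array sets that coincide with food deprivation and control, and dim genes such as Gjb1 and Nkx6-2, with arrays under the offset.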
